A study of Homo sapiens with 14 samples.

Results

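Transcripts of 10 inflammatory cytokine and chemokine genes, IL1A, IL1B, IL6, LIF, CXCL8, CXCL1, CXCL2, CXCL3, CXCL5 and CCL20, were followed in SCC23 cells, an established human head and neck squamous cell carcinoma line. The members were taken by gene name, and 10 of 10 were found among the 59471 gene names counted. KMT2D-WT cells carried Cas9 with a guide against LacZ, and the knockout lines KO1 and KO2 came from CRISPR/Cas9 plasmids against KMT2D. GFP-positive cells were sorted, and since no cloning of single cells is described, each line may hold several alleles. Cells were grown in high-glucose medium with serum and then stayed in glucose or went without it for 6 h, with 3 KMT2D-WT and 4 KMT2D-KO libraries in each condition. In each condition, experiment 1 had 1 KMT2D-WT, 1 KO1 and 1 KO2 library, and experiment 2 had 2 KMT2D-WT, 1 KO1 and 1 KO2 library. KMT2D is a histone methyltransferase that marks enhancers, and the study asked what its loss does with and without glucose.

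Interleukin-1 alpha and beta are alarm cytokines that signal through a receptor complex with the accessory chain IL1RAP and switch on NF-kappaB, a transcription factor family held in check by inhibitors such as NFKBIA and TNFAIP3. NF-kappaB, together with AP-1 and C/EBP factors, drives IL6 and the CXC chemokines CXCL8, CXCL1, CXCL2, CXCL3 and CXCL5, which call neutrophils through CXCR1 and CXCR2. IL6 and LIF are sister cytokines that share the signal chain IL6ST (gp130) with their own receptors IL6R and LIFR, and act through STAT3, which induces its own inhibitor SOCS3. CCL20 is a CC chemokine of epithelia that binds CCR6. Keratinocytes and squamous carcinoma cells are known sources of many of these factors.

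Some libraries differed from what their labels say or stood apart, and these facts bear on the results that follow. Over 65 genes that differed by at least 3 on the log2 scale between KO1 and KO2 cells kept in glucose, the glucose-deprived library labelled KO1 of experiment 2 lay near KO2 (mean log2 distance 0.384) and far from KO1 (2.04). The glucose-deprived KMT2D-KO libraries thus held 1 library near KO1 and 3 near KO2, against 2 and 2 in cells kept in glucose. The 2 glucose-deprived libraries of experiment 2 were also very close to each other within each genotype, with a chi-square per gene of 1.71 in KMT2D-WT and 1.78 in KMT2D-KO cells against 25.9 to 83.0 for other pairs, so the spread between them may be too small. KMT2D itself averaged 272 CPM (SD 6.95, n = 3) in KMT2D-WT and 265.5 CPM (SD 97.4, n = 4) in the KMT2D-KO libraries kept in glucose, and after deprivation 234 (SD 4.48, n = 3) and 127 CPM (SD 73.9, n = 4), with 19.9 CPM in the glucose-deprived KO1 library of experiment 1. With glucose, KO1 was at 182 and 184 CPM, below all KMT2D-WT libraries, and KO2 at 323 and 373 CPM, above them. CPM are counts scaled to library size with TMM factors over all 14 libraries. Total counts ran from 15669154 to 62968057, and the 4 libraries with glucose from experiment 2 had each mate of a pair counted. In experiment 2 deprivation and read layout cannot be told apart. Epithelial markers summed to between 2407 and 5854 CPM and 10 leukocyte markers to between 0.816 and 2.49 CPM, with at most 1 count of PTPRC. The sum of 9 fibroblast markers was 12.6 to 27.0 CPM in KMT2D-KO and 5.88 to 7.13 CPM in KMT2D-WT cells kept in glucose, and 7.45 to 14.04 and 3.26 to 5.62 CPM after deprivation. Over all libraries COL1A1 was at 3.03 to 15.98 CPM, and COL1A2 and COL3A1 reached at most 5.34 and 5.26 CPM. PDGFRA, PDGFRB, LUM, DCN, THY1 and FAP stayed at 0.816 CPM or less. The 5 endothelial markers summed to between 0.380 and 4.26 CPM. The 10 epithelial markers summed to 4281 to 5854 CPM in glucose-deprived KMT2D-KO cells and to at most 3854 CPM elsewhere. The part of these marker levels in the results was not tested.

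The promoters of these genes are known for NF-kappaB sites, and a match of each promoter is shown because, of the 3 motifs searched, this was the one that most members held. Of the 10 members, 9 had a promoter in the RefSeq table (GRCh38.p14, 250 bases before to 50 after the start). The letters GGNNNTTCC, searched on both strands, occurred in 7 of these 9 and in 20.1% of all 35116 promoters of that length. The windows below hold 1 match per promoter, the one farther from the start where there were 2, in capitals with its flanks in lower case, 5′ to 3′ on the strand of the gene, and for CCL20 the letters match on the opposite strand.
IL6, chr7:22727118-22727146, plus strand, first base of the match at -72: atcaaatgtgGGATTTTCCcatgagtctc
CXCL8, chr4:73740468-73740496, plus strand, at -91: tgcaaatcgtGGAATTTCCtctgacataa
CXCL1, chr4:73869305-73869333, plus strand, at -78: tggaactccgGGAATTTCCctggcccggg
CXCL2, chr4:74099254-74099282, minus strand, at -77: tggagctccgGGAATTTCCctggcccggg
CXCL3, chr4:74038749-74038777, minus strand, at -78: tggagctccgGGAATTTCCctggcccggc
CXCL5, chr4:73998749-73998777, minus strand, at -90: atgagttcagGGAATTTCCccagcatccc
CCL20, chr2:227813753-227813781, plus strand, at -79: tgatcaatggGGAAAACCCcatgtggcaa
The 5 CXC chemokines showed the same capitals, and CXCL1, CXCL2 and CXCL3 each held another match nearer to the start, at -53. The match of IL6 differed from theirs within the free letters of the motif. AP-1 letters (TGANTCA) were found in IL1A and CXCL8 among the 9 members and in 7.71% of all promoters, and C/EBP letters (TTGCNNAA) in IL1B, IL6 and CXCL2 and in 10.5% of all. No matches of different motifs overlapped in these members. These are matches of letters and not measured binding.

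The levels of the members, compared per kilobase of exon, spanned a wide range in every group. In KMT2D-WT cells kept in glucose CXCL1 was highest with 149.5 CPM per kb, followed by CXCL8 (68.8), IL1A (66.1) and LIF (36.4), whose ranges overlapped from neighbour to neighbour. CXCL2 (18.9) and IL1B (12.8) came next, then CXCL3 (2.25) and IL6 (1.57), and CCL20 was at 0.705 CPM per kb. In glucose-deprived KMT2D-KO cells IL6 stood at 19.2 CPM per kb, within the range of CXCL2 (31.0) above it and LIF (17.7) below it. CXCL5, whose protein is a neutrophil attractant, had 0 counts in 11 of 14 libraries and at most 2, all at or under a floor of 3 counts (0.0444 to 0.188 CPM per library). It could not be tested, and 9 of 10 members entered the fits.

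**Figure D1:**
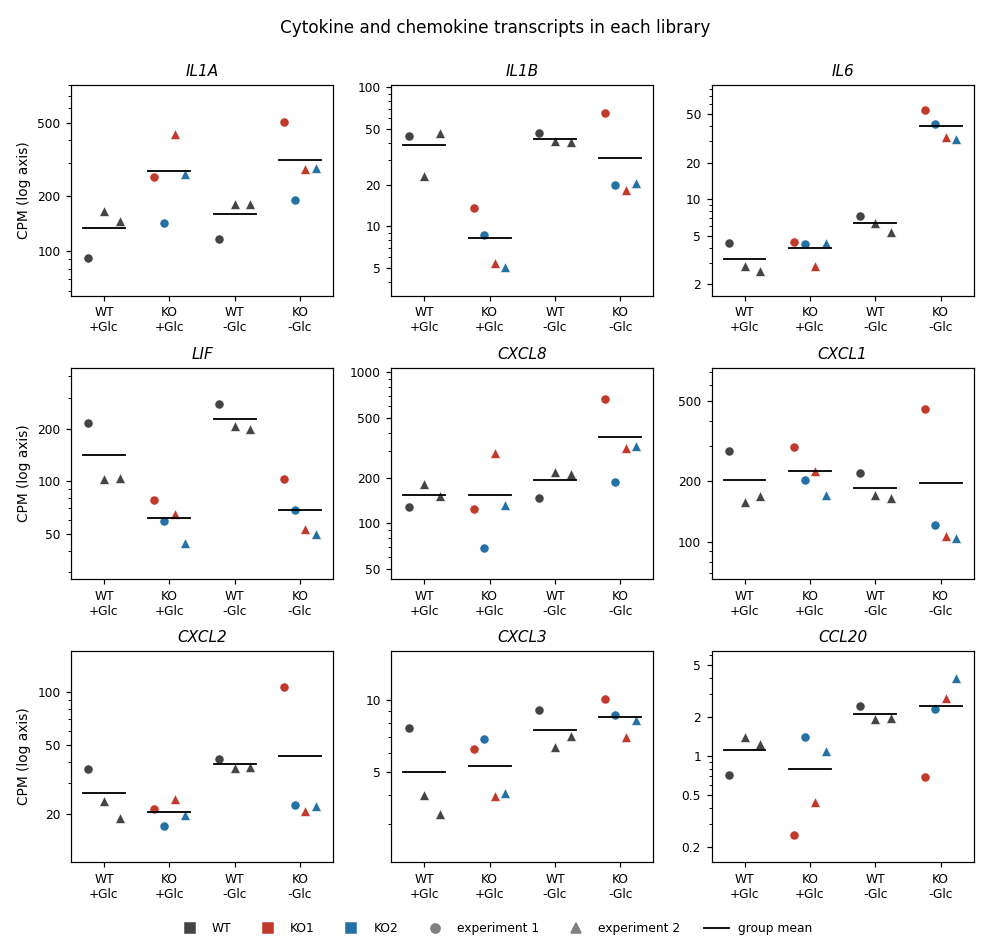
CPM of the 9 tested members in every library (log axes), by genotype and glucose condition. Colours give the line on the label, circles experiment 1, triangles experiment 2 and bars the group mean. IL6 lies at 31.1 to 54.2 CPM in glucose-deprived KMT2D-KO cells and at 7.35 CPM or less elsewhere, and the red triangle in that group is the library labelled KO1 that lies near KO2.

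LIF was lower in KMT2D-KO than in KMT2D-WT cells in both glucose conditions. In cells kept in glucose, IL1A was higher and IL1B and LIF were lower in KMT2D-KO cells, 3 of the 9 tested, where the same edgeR test called 24.7% of all 20423 genes. After deprivation, IL6 was higher and LIF lower, 2 of 9, where 50.8% of 16782 genes were called, a smaller share than the background. The KMT2D-KO effect itself differed between the conditions for 1 of 9 members, IL6, against 11.3% of 18678 genes. The median log2 fold change of the members was -0.0056 in glucose and 0.11 without it, beside 0.02 and 0.0029 over all genes tested. In these bulk libraries, fewer cells that make a transcript and less transcript per cell cannot be told apart.

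**Figure D2:**
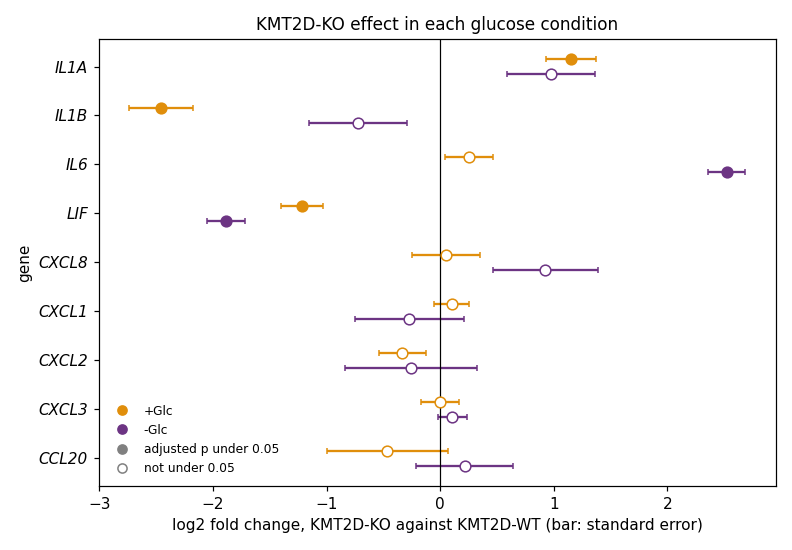
log2 fold change of KMT2D-KO against KMT2D-WT cells for each tested member, with standard errors, in cells kept in glucose (orange) and deprived of it (purple). Filled points passed an adjusted p-value of 0.05. IL6 is at 0.26 with glucose and 2.52 without it, while LIF is below 0 in both conditions.

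IL6, the cytokine that signals through IL6R and IL6ST to STAT3, gave the largest log2 fold changes of the tested members between genotypes in glucose-deprived cells and with deprivation in each genotype, but not between genotypes in cells kept in glucose or between KO1 and KO2. In cells kept in glucose it was at 4.35, 2.83 and 2.58 CPM in the KMT2D-WT libraries and at 4.42 and 2.81 CPM in KO1 and 4.26 and 4.39 CPM in KO2. After deprivation it was at 7.35, 6.34 and 5.39 CPM in KMT2D-WT cells, and at 54.2 (KO1) and 41.5 CPM (KO2) in experiment 1 and 32.5 and 31.1 CPM in experiment 2. The genotypes overlapped in cells kept in glucose, whereas every glucose-deprived KMT2D-KO library lay far above every KMT2D-WT library. With glucose, the log2 fold change was 0.26 (SE 0.21, adjusted p = 0.432, quasi-likelihood test of edgeR, Benjamini-Hochberg adjustment over all genes). Without glucose, IL6 was 5.74-fold higher in KMT2D-KO cells (log2 2.52, SE 0.16, adjusted p = 7.22e-05, edgeR). Within experiments the ratio was 6.51 in experiment 1 and 5.42 in experiment 2, and it stayed at a log2 of 2.42 without the KO1 library of experiment 1 and at 2.58 with the close pairs of experiment 2 summed (adjusted p = 0.0163, edgeR). In experiment 1 alone, with 3 libraries, the log2 of 2.70 was not called (adjusted p = 0.123, edgeR), in a fit that called 0 of 17219 genes.

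The difference between these KMT2D-KO effects on IL6 was 2.28 on the log2 scale (SE 0.24, adjusted p = 3.52e-04, edgeR, fit of all 14 libraries). It was called in each of 14 fits that left out 1 library (2.14 to 2.51) and with KO2-labelled libraries as the only KMT2D-KO cells (1.96, adjusted p = 2.20e-05, edgeR), and in 22 of 23 alternatives in all. It was not called in experiment 1 alone, the experiment with 1 read layout, where the difference was 2.68 (adjusted p = 1.00, edgeR) and 0 of 18571 genes were called. Deprivation raised IL6 2.01-fold in KMT2D-WT cells (log2 1.01, SE 0.16, adjusted p = 0.0251, edgeR) and 9.69-fold in KMT2D-KO cells (log2 3.28, SE 0.19, adjusted p = 1.59e-04, edgeR). In experiment 1, where all libraries had the same read layout, the rise was 1.69-fold in KMT2D-WT, 12.2-fold in KO1 and 9.74-fold in KO2 cells. These ratios each rest on 1 library per condition. IL6 (chromosome 7, 22725884 to 22732002, plus strand, GRCh38) shares 20.7% of its exonic bases with IL6-AS1 or STEAP1B, and since counting ignored strand their reads cannot be told apart from those of IL6 there.

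LIF, the sister cytokine of IL6, was lower in KMT2D-KO cells in both conditions. In cells kept in glucose it was at 215, 103 and 105 CPM in KMT2D-WT libraries, at 77.5 and 65.2 CPM in KO1 and at 58.9 and 44.1 CPM in KO2. After deprivation it was at 278, 207 and 200.01 CPM in KMT2D-WT cells and at 102.5, 68.3, 53.2 and 50.1 CPM in KMT2D-KO cells. All KMT2D-KO libraries lay below all KMT2D-WT libraries of the same condition. LIF was 2.33-fold lower in KMT2D-KO cells with glucose (log2 -1.22, SE 0.18, adjusted p = 0.0017, edgeR) and 3.69-fold lower without it (log2 -1.88, SE 0.17, adjusted p = 2.11e-04, edgeR). The ratio of KMT2D-KO to KMT2D-WT was 0.318 and 0.525 in experiments 1 and 2 with glucose, and 0.308 and 0.254 without it. The difference between these effects did not pass the limit (log2 -0.64, SE 0.26, adjusted p = 0.138, edgeR). It passed in 1 of 14 fits that left out 1 library, the fit without the glucose-deprived KO1 library of experiment 1 (-0.76, adjusted p = 0.0311, edgeR). That fit called 22.5% of all genes, against 11.3% in the main one. Its glucose-deprived KMT2D-KO libraries all lay near KO2, and each genotype held a close pair, so the p-value may be too small. LIF lies on chromosome 22 from 30240453 to 30246759 on the minus strand, and 4.37% of its exonic bases fall in other annotated genes.

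The interleukin-1 genes moved in opposite directions with KMT2D loss in cells kept in glucose. IL1A was at 90.9, 164 and 145 CPM in KMT2D-WT libraries, at 254 and 432 CPM in KO1 and at 142 and 261 CPM in KO2 of experiments 1 and 2. The KO2 library of experiment 1 lay among the KMT2D-WT values, and the other KMT2D-KO libraries lay above them. IL1A was 2.23-fold higher in KMT2D-KO cells (log2 1.15, SE 0.22, adjusted p = 0.00552, edgeR), with ratios of 2.18 and 2.24 in experiments 1 and 2. With the KMT2D-WT library of experiment 1 left out the log2 was again 1.15 and did not pass (adjusted p = 0.0592, edgeR). IL1B was at 44.8, 23.0 and 47.3 CPM in KMT2D-WT libraries, at 13.6 and 5.46 CPM in KO1 and at 8.62 and 5.05 CPM in KO2. All KMT2D-KO libraries lay below all KMT2D-WT libraries, and IL1B was 5.49-fold lower (log2 -2.46, SE 0.28, adjusted p = 4.07e-04, edgeR). It was called in 16 of 16 alternatives, with log2 fold changes from -2.75 to -2.02. The genes lie near each other on chromosome 2, IL1A from 112773925 to 112784493 and IL1B from 112829751 to 112836816, both on the minus strand, and no other annotated gene shares their exonic bases.

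After deprivation, IL1B was at 47.1, 40.8 and 40.6 CPM in KMT2D-WT cells. It was at 65.2 CPM in the KO1 library of experiment 1 and at 19.7, 18.2 and 20.6 CPM in the other KMT2D-KO libraries. The KO1 library of experiment 1 thus lay above the KMT2D-WT range and the other 3 below it, and the log2 fold change of -0.73 (SE 0.43) did not pass the limit (adjusted p = 0.199, edgeR). Without that library it was -1.16 (adjusted p = 4.49e-12, edgeR), in a fit where 2 of the 3 KMT2D-KO libraries are a close pair. The KMT2D-KO libraries of that fit all lay near KO2. As 2 of the 3 KMT2D-WT libraries are a close pair too, its p-values may be too small. Deprivation raised IL1B 3.70-fold in KMT2D-KO cells (log2 1.89, SE 0.35, adjusted p = 0.00881, edgeR), with 3.82 and 3.69 in experiments 1 and 2. In KMT2D-WT cells the log2 change was 0.18 (SE 0.26, adjusted p = 0.637, edgeR). In experiment 1 alone the ratio of deprived to kept cells was 4.801 in KO1, 2.29 in KO2 and 1.05 in KMT2D-WT cells. Between conditions the KMT2D-KO effect on IL1B differed by 1.75 (SE 0.54, adjusted p = 0.0536, edgeR), just outside the limit. It passed in 3 of 14 fits that left out 1 library, among them the one without the glucose-deprived KO1 library of experiment 1 (1.34, adjusted p = 0.0147, edgeR). The glucose-deprived KMT2D-KO libraries left there all lay near KO2, and each genotype held a close pair, so this p-value too may be too small. IL1A in glucose-deprived cells was at 117, 181 and 181 CPM in KMT2D-WT libraries and at 501, 189, 279 and 283 CPM in KMT2D-KO libraries. All KMT2D-KO libraries lay above the KMT2D-WT range, yet the log2 fold change of 0.97 (SE 0.38) did not pass (adjusted p = 0.0717, edgeR), and with the KO1 library of experiment 1 left out it was 0.62 and passed (adjusted p = 1.31e-11, edgeR). The latter is the same fit of glucose-deprived cells that gave -1.16 for IL1B, and the same limit holds.

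None of the 4 tested CXC chemokines passed the test between genotypes in either condition with both lines together. At an unadjusted p-value under 0.05 none of these 4 passed in either condition as well, and by DESeq2 only CXCL8 passed, in glucose-deprived cells (log2 0.98, adjusted p = 0.0372, DESeq2). CXCL8, the classic neutrophil chemokine known as IL8, was at 129, 182 and 151 CPM in KMT2D-WT cells kept in glucose. It was at 125 and 293 CPM in KO1 and at 68.7 and 133 CPM in KO2. The KMT2D-KO libraries spread on both sides of the KMT2D-WT range, and the log2 fold change was 0.05 (SE 0.30, adjusted p = 0.926, edgeR). KO1 alone gave 0.47 (adjusted p = 0.0186, edgeR) and KO2 alone -0.55 (adjusted p = 0.00151, edgeR). After deprivation CXCL8 was at 148, 218 and 213 CPM in KMT2D-WT cells and at 669, 187, 314 and 328 CPM in KMT2D-KO cells. The KO1 library of experiment 1 was highest, and the KO2 library of experiment 1 lay within the KMT2D-WT range. The log2 fold change was 0.93 (SE 0.46, adjusted p = 0.137, edgeR), and without that KO1 library it was 0.47 and passed (adjusted p = 1.57e-09, edgeR). The KMT2D-KO libraries left in the latter fit all lay near KO2. Each genotype held a close pair there, so the p-value may be too small.

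CXCL1, CXCL2 and CXCL3 are close copies of each other that lie with CXCL8 and CXCL5 in a chemokine cluster on chromosome 4. Between 5.26% (CXCL3) and 10.1% (CXCL2) of 50-base windows of their transcripts also occur in another gene, so that some of their reads may be split or lost. CXCL1 (73869393 to 73871308) was at 283, 159 and 169 CPM in KMT2D-WT and at 295, 204, 226 and 171 CPM in KMT2D-KO cells kept in glucose. After deprivation it was at 220.3, 171 and 165 CPM in KMT2D-WT cells, and at 456 CPM in the KO1 library of experiment 1 and 122, 107 and 105 CPM in the other KMT2D-KO libraries. The KO1 library again stood above the KMT2D-WT range and the other 3 below it.

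CXCL2 (74097040 to 74099196) showed the same split. With glucose, CXCL2 was at 36.2, 23.9 and 18.9 CPM in KMT2D-WT and at 21.4, 17.0, 24.5 and 19.8 CPM in KMT2D-KO libraries. After deprivation, CXCL2 was at 41.6, 36.9 and 37.4 CPM in KMT2D-WT cells, at 108 CPM in the KO1 library of experiment 1 and at 22.6, 20.7 and 22.3 CPM in the others. Over both lines the log2 fold changes in glucose-deprived cells were -0.27 for CXCL1 (SE 0.48, adjusted p = 0.661, edgeR) and -0.26 for CXCL2 (SE 0.58, adjusted p = 0.735, edgeR). Without the KO1 library of experiment 1 they were -0.76 (adjusted p = 2.32e-12, edgeR) and -0.85 (adjusted p = 1.32e-10, edgeR). The KMT2D-KO libraries left in that fit all lay near KO2. Each genotype held a close pair there, so these p-values may be too small. In that fit 8 of the 9 members were called, IL1A, IL6, CXCL8 and CCL20 higher and IL1B, LIF, CXCL1 and CXCL2 lower, where 74.4% of all 16739 genes were called.

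CXCL3 (74036589 to 74038807) and CCL20 (chromosome 2, 227805739 to 227817564) were low throughout. CXCL3 ranged from 3.33 to 7.68 CPM in KMT2D-WT and from 3.94 to 6.87 CPM in KMT2D-KO cells kept in glucose, and from 6.37 to 9.11 and from 6.98 to 10.1 CPM after deprivation. The genotypes overlapped in both conditions (log2 -0.0056 with glucose and 0.11 without it). CCL20 had between 4 and 96 counts per library. It was at 0.717, 1.41 and 1.25 CPM in KMT2D-WT and at 0.246, 1.40, 0.441 and 1.09 CPM in KO1, KO2, KO1 and KO2 libraries kept in glucose. After deprivation, CCL20 was at 2.45, 1.93 and 1.97 CPM in KMT2D-WT and at 0.690, 2.30, 2.80 and 4.02 CPM in KMT2D-KO libraries. The KO1 libraries were the lowest of their groups, save the glucose-deprived one of experiment 2, whose profile lay near KO2. The log2 fold changes between genotypes were -0.47 and 0.21 (adjusted p = 0.583 and 0.702, edgeR).

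Glucose deprivation by itself was next compared within each genotype. In KMT2D-WT cells IL6 and LIF were higher after 6 h without glucose, 2 of 9 members, where 14.7% of 17227 genes were called, 1231 higher and 1305 lower. In KMT2D-KO cells IL6, IL1B and CXCL3 were higher, 3 of 9, where 30.0% of 16057 genes were called, 2240 higher and 2573 lower. No member was lower in either genotype. The median log2 change of the members was 0.61 in KMT2D-WT and 0.83 in KMT2D-KO cells, beside 0.01 and 0.0049 over all genes tested. In KMT2D-WT cells 8 of the 9 members had the same direction in both experiments, and in KMT2D-KO cells 5 of 9. The same share over all genes was not computed, so these counts give no result about the members or the genotypes. In experiment 2 the direction also carries the read layout. Whether the genotypes responded differently was asked by the test of both KMT2D-KO effects given above, which passed the test for IL6 alone among these members.

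LIF rose 1.71-fold in KMT2D-WT cells (log2 0.78, SE 0.13, adjusted p = 0.0265, edgeR) and had a log2 change of 0.10 in KMT2D-KO cells (SE 0.20, adjusted p = 0.721, edgeR). CXCL3 rose 1.63-fold in KMT2D-KO cells (log2 0.70, SE 0.17, adjusted p = 0.0206, edgeR) and had a log2 change of 0.68 in KMT2D-WT cells (SE 0.19, adjusted p = 0.0632, edgeR). In KMT2D-WT cells the calls of IL6 and LIF were lost in 4 of 6 fits that left out 1 library, those without 1 library of experiment 2, where adjusted p-values in edgeR ran up to 0.165 and at most 1 of all genes was called. They were also lost with the close pairs summed (adjusted p = 0.179 for both, edgeR), where 1 of 20612 genes was called, while over 13 alternatives the log2 changes stayed between 0.91 and 1.13 for IL6 and between 0.71 and 0.98 for LIF. In KMT2D-KO cells, with KO2-labelled libraries as the only KMT2D-KO cells, IL6 kept a log2 change of 3.02 that was not called (adjusted p = 0.126, edgeR), and in experiment 1 alone one of 3.42 that was not called either (adjusted p = 0.0525, edgeR). Those fits called 0 of 16698 and 0 of 15946 genes. In KO1 of experiment 1, deprived cells had 5.37 times the CXCL8 and 5.04 times the CXCL2 of cells kept in glucose, against 2.73 and 1.33 in KO2 and 1.15 and 1.15 in KMT2D-WT cells of that experiment. With the deprived library of that KO1 pair left out, the log2 changes in KMT2D-KO cells went from 1.34 to 0.72 for CXCL8 and from 0.83 to 0.06 for CXCL2, none of them called, and CXCL1 (-0.97, adjusted p = 0.0072, edgeR) and CCL20 (1.88, adjusted p = 0.0492, edgeR) passed. The deprived KMT2D-KO libraries left in that fit all lay near KO2 and held a close pair, so these p-values may be too small.

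**Figure D3:**
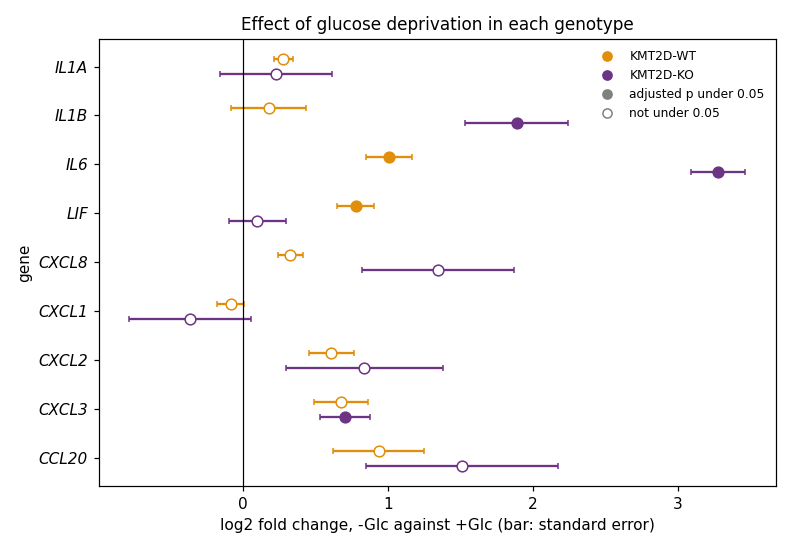
log2 fold change of glucose-deprived against glucose-fed cells for each tested member, with standard errors, in KMT2D-WT (orange) and KMT2D-KO cells (purple). Filled points passed an adjusted p-value of 0.05. IL6 rose by 1.01 in KMT2D-WT and 3.28 in KMT2D-KO cells, and CXCL1 is near 0 or below it in both.

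The KMT2D-KO lines differed from each other in 5 of the 9 members in cells kept in glucose, where 15.3% of 20423 genes differed between them. IL1A was 1.71-fold (log2 0.78, SE 0.08, adjusted p = 1.59e-05, edgeR) and CXCL8 2.03-fold higher in KO1 than in KO2 (log2 1.02, SE 0.15, adjusted p = 2.73e-04, edgeR). CXCL1 and LIF were 1.38-fold and 1.41-fold higher in KO1 (adjusted p = 0.00645 and 0.0266, edgeR), and CCL20 was 3.36-fold lower (log2 -1.75, SE 0.47, adjusted p = 0.0188, edgeR). IL6 and IL1B did not pass between the lines (log2 -0.34 and 0.37, adjusted p = 0.408 and 0.481, edgeR). Each line had 2 libraries. The lines thus differed in IL1A by size but not in direction against KMT2D-WT cells, with log2 fold changes of 1.49 in KO1 and 0.72 in KO2, both called.

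The receptors of these cytokines were examined in a list of 11 genes. Only 5 passed the filter on low counts in each condition, and CXCR1, CXCR2 and CCR6, the receptors of the chemokines, were among those that did not. All 5 were called in KMT2D-KO cells in both conditions, 2 higher and 3 lower, against 24.7% of all genes with glucose and 50.8% without it. IL6R, the ligand-binding chain for IL6, was at 19.5, 15.1 and 12.9 CPM in KMT2D-WT and at 9.09, 3.68, 7.65 and 4.61 CPM in KMT2D-KO cells kept in glucose. After deprivation, IL6R was at 60.6, 51.4 and 50.7 CPM in KMT2D-WT and at 5.89, 10.9, 7.21 and 7.41 CPM in KMT2D-KO cells. It was lower in KMT2D-KO cells with glucose (log2 -1.35, SE 0.29, adjusted p = 0.00893, edgeR) and without it (log2 -2.84, SE 0.17, adjusted p = 6.45e-05, edgeR). The difference of these effects was -1.46 (SE 0.38, adjusted p = 0.0293, edgeR), opposite in sign to that of IL6. Deprivation raised IL6R 3.48-fold in KMT2D-WT cells (log2 1.80, SE 0.09, adjusted p = 0.00983, edgeR), and in KMT2D-KO cells its log2 change was 0.30 (SE 0.34, adjusted p = 0.514, edgeR). The call in KMT2D-WT cells was lost with the close pairs of experiment 2 summed, a fit that called 0 of 20612 genes higher.

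IL6ST, the shared signal chain, was lower in KMT2D-KO cells kept in glucose (log2 -0.57, adjusted p = 0.00244, edgeR), and LIFR, the receptor chain for LIF, was higher (log2 0.85, adjusted p = 0.0206, edgeR). The genotypes overlapped in both genes, with IL6ST at 78.1 to 223.9 CPM in KMT2D-WT and 45.6 to 158.8 CPM in KMT2D-KO libraries. LIFR was at 7.255 to 18.65 and 8.86 to 37.4 CPM, and 1.61-fold higher in KO1 than in KO2 (adjusted p = 0.00164, edgeR). IL1RAP, the accessory chain for interleukin-1, was lower with glucose (log2 -1.16, adjusted p = 4.06e-04, edgeR) and without it (log2 -1.11, adjusted p = 0.00119, edgeR). OSMR, the receptor for the related cytokine oncostatin M, was higher in glucose-deprived KMT2D-KO cells (log2 0.85, adjusted p = 3.80e-04, edgeR).

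**Figure D4:**
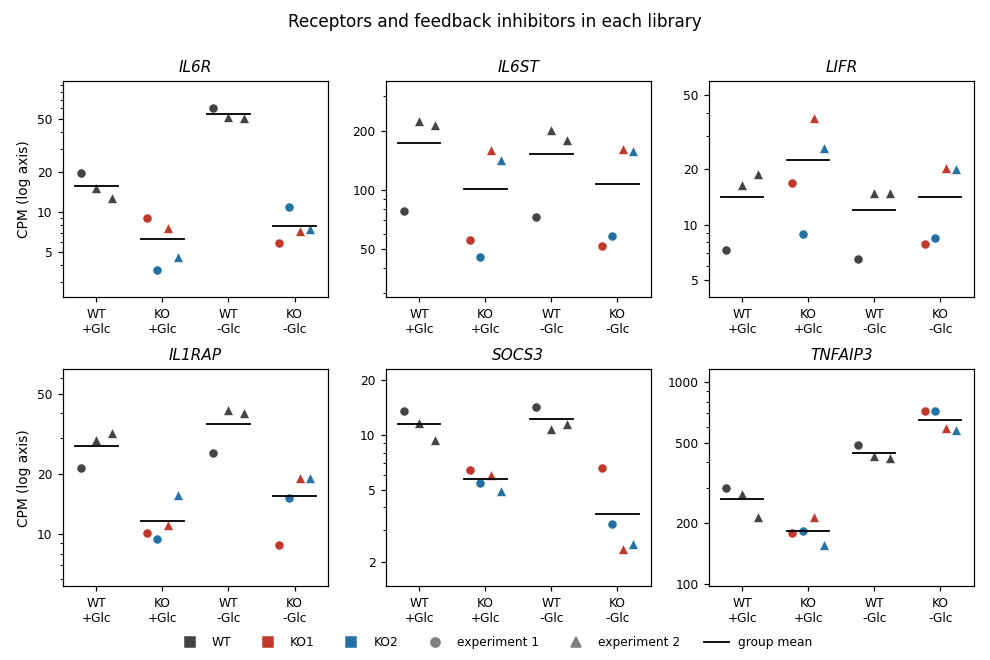
CPM of 4 receptor genes and 2 feedback inhibitors in every library (log axes), drawn as in the plot of the members. IL6R in glucose-deprived KMT2D-WT cells averages 54.2 CPM and lies above all other groups, SOCS3 is lower in KMT2D-KO cells of both conditions, and TNFAIP3 is highest in glucose-deprived KMT2D-KO cells.

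Of 15 inhibitors and feedback genes, 14 were tested. In KMT2D-KO cells 1 was higher and 3 were lower with glucose, and 3 were higher and 3 lower without it, so 4 and 6 of 14 beside the 24.7% and 50.8% of all genes. The 1 higher with glucose was TNIP1 (log2 0.77, adjusted p = 4.65e-04, edgeR), which was also higher without it (log2 0.84, adjusted p = 0.00103, edgeR). SOCS3, the STAT3-induced inhibitor of IL6 family signalling, averaged 11.5 CPM (SD 2.02, n = 3) in KMT2D-WT cells kept in glucose, against 5.71 CPM (SD 0.668, n = 4) in their KMT2D-KO counterparts, and 12.1 (SD 1.89, n = 3) and 3.68 CPM (SD 1.97, n = 4) after deprivation. It was lower in KMT2D-KO cells in both conditions (log2 -1.03, adjusted p = 0.00188, and log2 -1.93, adjusted p = 0.0015, edgeR). TNFAIP3, which shuts down NF-kappaB signalling and is itself a target of it, was lower in KMT2D-KO cells kept in glucose (log2 -0.53, adjusted p = 0.0251, edgeR). Deprivation raised it in KMT2D-WT (log2 0.77, adjusted p = 0.0220, edgeR) and in KMT2D-KO cells (log2 1.80, adjusted p = 4.15e-04, edgeR), and the KMT2D-KO effect differed between conditions by 1.04 (SE 0.17, adjusted p = 0.00364, edgeR). NFKBIA, the inhibitor that holds NF-kappaB in the cytoplasm, rose with deprivation in both genotypes (log2 0.46, adjusted p = 0.0352, and log2 0.85, adjusted p = 0.00688, edgeR). As for IL6R, the KMT2D-WT calls of TNFAIP3 and NFKBIA were lost with the close pairs of experiment 2 summed.

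Among 15 genes of the NF-kappaB core, 2 were higher and 4 lower in KMT2D-KO cells with glucose, and 5 were higher and 4 lower without it, so 6 and 9 of 15 beside the same 24.7% and 50.8%. IRAK1, a kinase of interleukin-1 receptor signalling, was higher in both conditions (log2 0.88, adjusted p = 0.00223, and log2 0.73, adjusted p = 0.00363, edgeR). CHUK, which encodes an I-kappaB kinase, was lower in both (log2 -0.56, adjusted p = 0.00216, and log2 -0.87, adjusted p = 2.30e-04, edgeR). The KMT2D-KO effect was more positive in glucose-deprived cells for 3 of the 15, beside 11.3% of all 18678 genes called in that test. They were RELA (0.52, adjusted p = 0.00714, edgeR), RELB (0.63, adjusted p = 0.0257, edgeR) and TRAF6 (0.54, adjusted p = 0.0278, edgeR). Of 6 C/EBP and STAT3 pathway genes none was called between genotypes with glucose and 2 of the 5 tested were higher without it. CEBPD, a C/EBP factor, had log2 fold changes of 0.81 with glucose (adjusted p = 0.0790, edgeR) and 0.89 without it (adjusted p = 0.0121, edgeR), and STAT3 had 0.10 (adjusted p = 0.514, edgeR) and 0.40 (adjusted p = 0.00148, edgeR). When both KMT2D-KO effects were tested against each other, none of the 6 was called (0.11 for CEBPD, adjusted p = 0.898, and 0.33 for STAT3, adjusted p = 0.110, edgeR). CEBPB, which encodes a factor known to act on IL6, rose with deprivation in KMT2D-WT (log2 1.42, adjusted p = 0.0168, edgeR) and KMT2D-KO cells (log2 0.86, adjusted p = 0.00631, edgeR). Its call in KMT2D-WT cells was also lost with the close pairs of experiment 2 summed.

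Of 31 other cytokines and chemokines, 16 were tested in cells kept in glucose, and 2 were higher and 4 lower in KMT2D-KO cells, against 24.7% of all genes called. CCL28, a mucosal chemokine, was higher (log2 1.45, adjusted p = 0.00198, edgeR), and IL11, another ligand of the IL6 family, was lower (log2 -1.89, adjusted p = 0.00789, edgeR). CSF3, the granulocyte growth factor, was lower as well (log2 -2.17, adjusted p = 0.0298, edgeR), with a low average of 1.45 CPM (SD 1.73, n = 4) in KMT2D-KO cells. With glucose it was 5.14-fold higher in KO1 than in KO2 (adjusted p = 6.04e-04, edgeR). Its highest KMT2D-KO library (3.99 CPM) lay within the KMT2D-WT range of 3.95 to 7.21 CPM. After deprivation 12 were tested, with 2 higher and 3 lower, against 50.8% of all genes. Of 19 other inflammatory target genes 16 were tested with glucose, 3 higher and 5 lower, beside the same 24.7%. ICAM1, the adhesion molecule that binds leukocyte integrins, averaged 195 CPM (SD 30.4, n = 3) in KMT2D-WT cells kept in glucose, against 24.3 CPM (SD 4.42, n = 4) in KMT2D-KO cells (log2 -3.02, SE 0.15, adjusted p = 1.73e-05, edgeR). LCN2, an iron-binding neutrophil protein also made by epithelia, was higher (log2 2.71, SE 0.34, adjusted p = 6.67e-04, edgeR), as was PTGS2, the inducible cyclooxygenase (log2 2.91, SE 0.61, adjusted p = 0.00865, edgeR). LCN2 averaged 8.70 CPM (SD 6.12, n = 4) in KMT2D-KO and 1.11 CPM (SD 0.683, n = 3) in KMT2D-WT cells kept in glucose. PTGS2 averaged 2.455 CPM (SD 1.74, n = 4) and 0.359 CPM (SD 0.093, n = 3), and was 3.18-fold higher in KO1 than in KO2 (adjusted p = 0.00415, edgeR). MMP3 was higher too (log2 3.21, SE 0.71, adjusted p = 0.0105, edgeR), and 5.30-fold higher in KO1 than in KO2 (adjusted p = 1.13e-06, edgeR). Genes of this group thus went both ways, like the members.

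The genes whose pattern was most like that of a member were taken by Pearson correlation of log2 CPM over the 14 libraries, among 14259 genes with a mean of at least 1 CPM, as a description of these libraries, which share depth, experiments and conditions. For IL6 they were ATF3, a transcription factor of the stress response (r = 0.987), and GADD45A, a growth arrest and DNA damage gene (r = 0.985). ATF3 averaged 7.94 and 12.02 CPM in KMT2D-WT and KMT2D-KO cells kept in glucose and 15.8 and 68.1 CPM after deprivation, and GADD45A 165 and 167 CPM with glucose and 293 and 901 CPM without it. The nearest gene was DTNBP1 for LIF (r = 0.960), FAM161B for IL1B (r = 0.955), PGRMC1 for IL1A (r = 0.949) and PAK1 for CXCL8 (r = 0.926).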

How the data were processed

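Polyadenylated RNA of SCC23 cells was sequenced in 14 libraries. The authors mapped the reads with HISAT2 to GRCh38, counted them per gene name with featureCounts 2.0.3 (Ensembl 102, primary alignments, strand ignored), and deposited unnormalized counts. Groups, lines and experiments were taken from the labels. Nothing in the labels says that libraries of a group came from separate cultures, so p-values measure the spread between these libraries.

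The deposited counts were fitted with the quasi-likelihood test of edgeR 4.0.16 (R 4.3.3) after a minimum count of 10 in filterByExpr and TMM scaling, with experiment as covariate and a Benjamini-Hochberg adjusted p under 0.05 over all genes tested. The experiment number in the labels pairs the libraries and serves as replicate block. Differences between experiments correlated over genes between genotypes (0.912 with glucose, 0.853 without it). With glucose, both genotypes also shared the change of read layout between experiments, so the correlation cannot tell whether cultures were paired. The paper's methods name DESeq2 without a covariate. As an alternative, DESeq2 1.42.0 was run with experiment as covariate, and not without it. Other alternatives were RLE scaling, no filter, no block, halved counts of both mates, single lines and experiments, summed close pairs and each library left out. Fits with KO2-labelled libraries only were added after seeing the data. The test was checked on simulated counts.

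The 10 members and all gene lists were chosen with earlier results of these data known. Members are described whatever their values. Other genes are named from fixed lists, at most 4 per list and comparison, by the size of a called log2 fold change at a mean of at least 1 CPM, with the 2 most similar genes of each member. Promoter sequences are from RefSeq (GRCh38.p14). ChIP-seq and other assays were not analysed here.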

Additional observations from a re-analysis of the deposited data

Results flagged for a closer look

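In groups of 4 libraries, a library was taken to stand apart where its gap to the next value was wide against the range of the group (Dixon's 95% limit), which chance gives in about 1 of 20 groups. This was so in 4 of the 18 groups of members checked. The rate of 1 in 20 holds for independent values. Glucose-deprived KMT2D-KO cells had 1 library near KO1 and the rest near KO2 with a close pair, so the shares cannot be compared. Among glucose-deprived KMT2D-KO cells, the KO1 library of experiment 1 was far above the others for IL1B (65.2 CPM, next 20.6), CXCL1 (455.7 CPM, next 122) and CXCL2 (108 CPM, next 22.6). It is the 1 library of that group whose profile lay near KO1, and it had 19.9 CPM of KMT2D. Line, label and library cannot be told apart here. For IL6 in KMT2D-KO cells kept in glucose, the KO1 library of experiment 2 was below the others (2.81 CPM, next 4.26).

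The KMT2D-KO effect on IL6 differed between glucose conditions by 2.28 on the log2 scale in edgeR's test of the difference itself, higher in 4 of 4 glucose-deprived KMT2D-KO libraries than in any KMT2D-WT library.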

How the results depend on the processing

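Across 54 member results, 873 alternative values were computed, of which 745 kept their side of the limit, 46 lost a call, 80 gained one and 2 reversed. A change of sign in a value called in neither fit was not counted as a reversal and stayed among the 745. The reversals were CXCL8 between genotypes with glucose in KO2 alone (-0.55) and the difference of the KMT2D-KO effect on CXCL2 in experiment 2 alone (-0.82). The causes were not tested.

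The share of all genes called moved widely between these fits, and it stands in brackets beside each count of members called. With glucose there were 3 (24.7% of all genes), against 6 in KO1 alone (30.6%), 5 in KO2 alone (35%) and 2 to 3 with a library left out (10.0% to 26.1%). After deprivation there were 2 (50.8%), against 4 with DESeq2 (54.0%), 6 without a filter (29.4%), 8 in KO2 alone (67.8%), 0 in experiment 1 alone (0%), 8 in experiment 2 alone (74.5%) and 2 to 8 with a library left out (34.3% to 74.4%). For the difference between conditions there was 1 (11.3%), against 2 with DESeq2 (18.6%), 4 without a filter (6.23%), 0 and 5 in experiments 1 and 2 alone (0% and 12%), 5 with KO2 only (22.7%) and 1 to 4 with a library left out (4.0% to 22.5%). For deprivation there were 2 in KMT2D-WT cells (14.7%), against 7 with DESeq2 (36.1%), 6 without a filter (15.8%), 6 in experiment 2 alone (46.5%), 0 with close pairs summed (0.00485%) and 0 to 6 with a library left out (0% to 47.6%). In KMT2D-KO cells there were 3 (30.0%), against 5 with DESeq2 (43.9%), 5 without a filter (19.6%), 0 and 5 in experiments 1 and 2 alone (0% and 50.7%), 0 with KO2 only (0%) and 2 to 5 with a library left out (12% to 38.6%). Between the lines there were 5 (15.3%), and 2 to 5 with a library left out (4.89% to 19.8%). Without the replicate block of experiment, the counts were 1 with glucose (4.75%), 2 after deprivation (21.8%), 1 for the difference (0.375%), 0 and 1 for deprivation in KMT2D-WT and KMT2D-KO cells (0.0116% and 9.12%), and 0 between the lines (0.049%). Deprivation in KMT2D-WT cells could not be fitted in experiment 1 alone, which has 1 library per condition.

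Fits of 1 experiment or line have 1 or 2 residual degrees of freedom. The exceptions are the difference between conditions in experiment 2 alone and with KO2 only, with 4 each. Experiment 2 without glucose rests on close pairs. CCL20 had as few as 4 counts, and CXCL5 allows no statement beyond its floor.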
